A study of Arabidopsis thaliana with 15 samples.

Results

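The regions described here are the peaks that lie at nuclear transfer RNA (tRNA) genes of Arabidopsis thaliana in chromatin immunoprecipitation sequencing (ChIP-seq) of MYB3R transcription factors. A peak counted as a member when its summit, the base with the highest signal, lay inside a tRNA gene on chromosomes 1 to 5 or within 200 bp of it. Of 42664 peaks on these chromosomes in 8 ChIP libraries, 511 were members. The choice used positions only, not peak heights, and the gene annotation listed 625 nuclear tRNA genes, 69 to 90 bp long with a median of 73 bp. At the edge of the window, 57 summits lay 151 to 200 bp from a tRNA gene and were members, and 45 lay 201 to 250 bp away and were not.

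The study compared where GFP-tagged MYB3R proteins sit on chromatin in inflorescence meristems. All plants were Columbia-0 (Col0) grown in 16 h of light a day, and the shoot apices were cut shortly after bolting, with open flowers removed. The GFP-MYB3R1 group held 3 libraries from plants with that fusion under pMYB3R1, the GFP-MYB3R4 group 3 libraries with that fusion under pMYB3R4, and the GFP-MYB3R4mNES group 2 libraries with a changed MYB3R4, named mNES in the labels without being spelled out, also under pMYB3R4. The same anti-GFP antibody (ab290) was used for all 8. The labels record no ChIP from plants without a GFP fusion, and they do not say whether a line carries the untagged factor as well, is a single insertion event, or which libraries came from separate plants, so p-values measure only the spread between these libraries. Peaks had been called against input DNA. The 7 input samples have no file of their own and were not analysed here. They are labelled for every ChIP library but MYB3R4 replicate 3, and which input served that library is not known, so its fold over input rests on an unnamed control.

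MYB3R proteins are MYB transcription factors known for controlling genes of the G2 and M phases of the cell cycle through the mitosis-specific activator element in their promoters. MYB3R4 is mainly known as an activator, and MYB3R1 acts both as an activator and as a repressor. tRNA genes are transcribed by RNA polymerase III. Their promoter lies inside the gene, where TFIIIC recognises the A and B boxes and places TFIIIB, which contains the TATA-binding protein, just upstream of the start. Such genes are very short, occur in many near-identical copies, and often sit in the narrow gaps between protein-coding genes, where a ChIP fragment can cover both.

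The lists differed greatly in length. On chromosomes 1 to 5 the MYB3R1 lists held 11478, 19655 and 7089 peaks, the MYB3R4 lists 786, 2717 and 456, and the MYB3R4mNES lists 227 and 256. Read depth is not given in the files, so no counting error or detection limit can be attached to a peak. Peak names inside the list labelled MYB3R4mNES replicate 1 carry the name stem of the MYB3R4 replicate 3 file, although 0 of its 227 peaks share both ends with a peak of that list. Results for that library are therefore those of the library labelled MYB3R4mNES replicate 1. The files also carry different styles of name, here called style A (MYB3R1 replicates 1 and 2, MYB3R4 replicates 1 and 2) and style B (the other 4 libraries). The labels describe more than 1 way of library preparation and sequencing without assigning them to libraries.

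Peaks at tRNA genes were found mainly in the MYB3R1 libraries. Their numbers were 136, 266 and 85 in MYB3R1 replicates 1 to 3, then 1, 12 and 8 in MYB3R4 and 1 and 2 in MYB3R4mNES. Counted as genes, 137, 269 and 85 of the 625 tRNA genes (21.9, 43.0 and 13.6%) had a summit in MYB3R1. In MYB3R4, 2, 12 and 8 did (0.32, 1.92 and 1.28%), and in MYB3R4mNES 1 and 2 did (0.16 and 0.32%). Every MYB3R1 library lay above every other library. The same window around all 27444 nuclear protein-coding genes held a summit for 33.6, 53 and 23.3% of genes in MYB3R1, 0.856, 4.75 and 0.845% in MYB3R4, and 0.375 and 0.43% in MYB3R4mNES. The share of tRNA genes lay below that background in 7 libraries and above it in MYB3R4 replicate 3. In that library, 6 of the 8 tRNA genes lie in the chromosome 2 stretch described further on. Without the stretch its share was 0.332% of tRNA genes against 0.614% of coding genes.

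**Figure D1:**
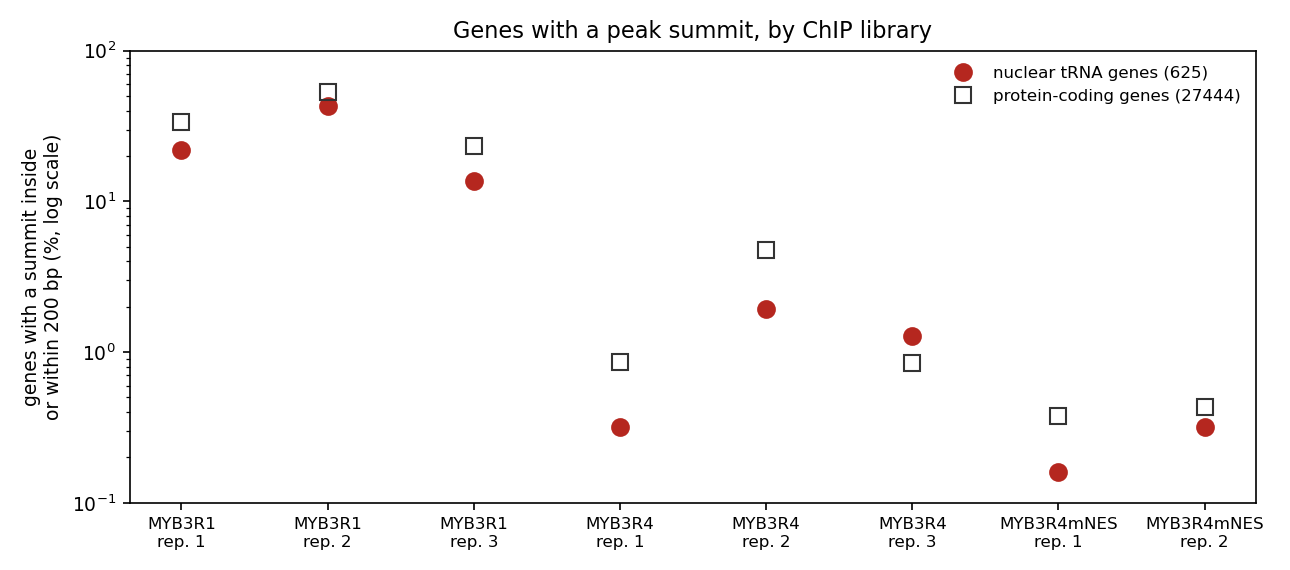
Share of genes with a peak summit inside or within 200 bp, in percent on a log axis, for the 8 ChIP libraries. Filled circles are the 625 nuclear tRNA genes and open squares the 27444 protein-coding genes. The tRNA genes reach 13.6 to 43.0% in MYB3R1 and at most 1.92% elsewhere, and the coding genes follow the same order of groups.

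The mean share of tRNA genes with a peak was 26.2% ± 15.2 (SD, n = 3) in MYB3R1, 1.17% ± 0.805 (SD, n = 3) in MYB3R4 and 0.24% ± 0.113 (SD, n = 2) in MYB3R4mNES. MYB3R1 exceeded MYB3R4 by 25.0 percentage points (two-sided exact permutation test over libraries, p = 0.10, the smallest that 3 against 3 allows). MYB3R1 exceeded MYB3R4mNES by 25.9 points (p = 0.20, exact permutation). That is the smallest for 3 against 2 with the test as run, which doubles the smaller tail. MYB3R4 and MYB3R4mNES differed by 0.933 points (p = 0.40, exact permutation). No design here could reach a p below 0.05 between groups. The difference between MYB3R1 and MYB3R4 was 31.4 points within style A and 12.3 points within style B.

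These differences moved with the length of the lists. When each list was cut to its 227 peaks of lowest p-value, the length of the shortest list, 1, 1 and 3 tRNA genes had a peak in MYB3R1, 0, 2 and 1 in MYB3R4, and 1 and 0 in MYB3R4mNES. The difference between MYB3R1 and MYB3R4 was then 0.107 points (p = 0.70, exact permutation). With 0 to 3 genes in each list, this setting could hardly show a difference between groups. As a share of each list, peaks at tRNA genes made up 1.18, 1.35 and 1.20% in MYB3R1, 0.127, 0.442 and 1.75% in MYB3R4, and 0.441 and 0.781% in MYB3R4mNES. The MYB3R1 values lie close together, within the range of MYB3R4. On this measure MYB3R1 exceeded MYB3R4 by 0.471 points (p = 0.40, exact permutation) and MYB3R4 exceeded MYB3R4mNES by 0.164 points (p = 1, exact permutation).

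The 3 MYB3R1 libraries shared many of their tRNA genes. A peak was present in at least 1 of them at 292 genes, in at least 2 at 134 genes (21.4%) and in all 3 at 65 genes (10.4%), against 34.7 and 19.4% of coding genes for at least 2 and for all 3. Of the 85 tRNA genes of replicate 3, 76 (89.4%) were also in replicate 2 and 70 (82.4%) in replicate 1. Of the 137 of replicate 1, 118 (86.1%) were in replicate 2 and 70 (51.1%) in replicate 3. The 269 of replicate 2, the longest list, shared 118 (43.9%) with replicate 1 and 76 (28.3%) with replicate 3. In MYB3R4, 2 genes (0.32%) had a peak in at least 2 libraries and 0 in all 3, against 0.816 and 0.361% of coding genes. In MYB3R4mNES 0 genes had a peak in both libraries, against 0.233% of coding genes.

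Over all 8 libraries, 305 tRNA genes (48.8%) had a peak in at least 1 library, against 56.4% of coding genes, and 320 had none. A gene with peaks in 3 libraries was seen 62 times, in 4 libraries 4 times and in 5 libraries at 1 gene, AT5G13845. There were 60 tRNA genes with a peak in all 3 MYB3R1 libraries and in no MYB3R4 library, and all 65 lacked a peak in MYB3R4mNES. These are 92.3 and 100% of the 65, where 96.8 and 99.5% of all tRNA genes lack a peak in those groups, so the counts show no separation of the groups beyond the rarity of such peaks. Of 5325 coding genes with a peak in all 3 MYB3R1 libraries, 86.8 and 98.0% lacked one in MYB3R4 and MYB3R4mNES. No tRNA gene had a peak in every library of MYB3R4 or of MYB3R4mNES.

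At the 65 genes shared by all 3 MYB3R1 libraries the summits lie close together in part because the window of 200 bp requires it. The distance between the outermost of the 3 summits was 7 to 256 bp, with a median of 78 bp, and was at most 100 bp at 40 genes. The authors' fold enrichment over input at these genes was 2.20 to 8.61 in replicate 1 (median 3.17), 2.31 to 8.48 in replicate 2 (median 3.68) and 1.78 to 5.52 in replicate 3 (median 2.24). All 65 lay within 500 bp of a coding gene, as did 455 (72.8%) of all 625 tRNA genes. By arrangement, 63 were single genes, 2 belonged to pairs and 0 to tandem clusters. Among all 625, 475 were single, 18 belonged to pairs and 132 to tandem clusters.

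Around single tRNA genes outside the chromosome 2 stretch described further on, MYB3R1 summits were concentrated within about 200 bp. Inside the tRNA genes there were 580, 1886 and 435 summits per Mb of sequence in replicates 1 to 3, and at 1 to 100 bp there were 738, 1540 and 401. At 101 to 200 bp the densities were 477, 586 and 336, at 201 to 300 bp 239, 217 and 217, and at 301 to 400 bp 97.6, 174 and 54.2. Replicate 2 was highest inside the gene, replicate 1 in the next 100 bp. From the gene out to 200 bp the densities were 603, 1193 and 379 per Mb, compared with 114, 182 and 70.4 at 1001 to 2000 bp. The sequence compared differs in kind. Coding genes cover 7.13% of the bases inside the tRNA genes, 19.7% at 1 to 100 bp and 42.4% at 101 to 200 bp. At 1001 to 2000 bp they cover 73.4 to 75.6%. The part of this in the fall of density was not tested. MYB3R4 replicate 2, the longest of the other lists, had 0 summits inside a tRNA gene and 43.4, 75.9 and 54.2 per Mb in the next 3 steps of 100 bp. It had 50.3 per Mb out to 200 bp and 25.7 at 1001 to 2000 bp.

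**Figure D2:**
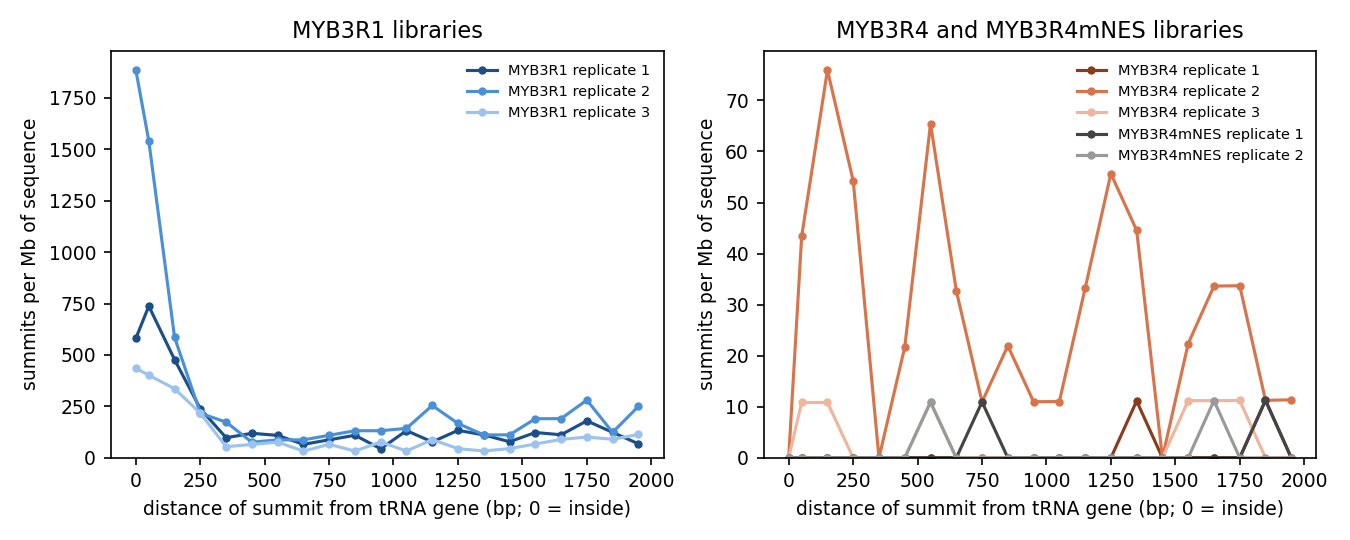
Density of peak summits around single tRNA genes outside the chromosome 2 stretch, in summits per Mb of sequence, against the distance from the tRNA gene in bp. The left panel holds the MYB3R1 libraries, which hold 435 to 1886 summits per Mb inside the gene and 70.4 to 182 at 1001 to 2000 bp. The right panel, on a smaller scale, holds the MYB3R4 and MYB3R4mNES libraries, of which MYB3R4 replicate 2 reaches 75.9 per Mb. Coding genes cover 7.13% of the bases inside the tRNA genes and 73.4 to 75.6% at 1001 to 2000 bp.

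The summit itself lay inside the tRNA gene for 21 of 136 peaks (15.4%) in MYB3R1 replicate 1, 65 of 266 (24.4%) in replicate 2 and 15 of 85 (17.6%) in replicate 3. The others lay beside it. Most members were also close to a coding gene. In MYB3R1, 32, 44 and 22 summits lay inside a coding gene, 77, 172 and 51 at 1 to 200 bp from its end, 18, 35 and 9 at 201 to 500 bp, and 9, 15 and 3 farther away. As shares, 23.5, 16.5 and 25.9% of members lay inside a coding gene, against 43.5, 42.5 and 53.6% of all other nuclear peaks. Summits inside or within 500 bp of a coding gene made up 93.4, 94.4 and 96.5% of members. Farther away lay 6.62, 5.64 and 3.53% of members and 17.2, 18.9 and 12.55% of the other peaks. Since 455 of the 625 tRNA genes themselves lie within 500 bp of a coding gene, the closeness of members follows in part from their choice.

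Per base, tRNA windows held more summits than windows around coding genes. In MYB3R1 there were 472, 922 and 295 summits per Mb of tRNA window, against 117, 198 and 78.4 per Mb of coding window. MYB3R4 had 3.47, 41.6 and 27.7 against 3.27, 17.7 and 3.25, and MYB3R4mNES had 3.47 and 6.93 against 1.44 and 1.62. In MYB3R1, windows around small nuclear RNA genes held 454, 779 and 368 per Mb and those around small nucleolar RNA genes 343, 403 and 292. Windows around microRNA genes held 66.1, 121 and 49.5. A rate above that of coding windows was thus not particular to tRNA genes. The ratio of tRNA to coding windows was 4.02, 4.65 and 3.76 in MYB3R1, 1.06, 2.35 and 8.52 in MYB3R4, and 2.41 and 4.28 in MYB3R4mNES. It exceeded 1 in 8 of 8 libraries, with a mean log2 ratio of 1.74 (two-sided exact sign-flip permutation test within libraries, p = 0.00781, the smallest that 8 libraries allow, and 0.0703 after Benjamini-Hochberg adjustment over the 9 main tests). A window around a coding gene is much longer and includes the gene body, so the share of genes with a summit went the other way, lower at tRNA genes by a mean difference of -4.33 points (p = 0.0391, exact sign-flip). The result ended without the chromosome 2 stretch described further on, where all members of MYB3R4 replicate 1 and of MYB3R4mNES lie (exact sign-flip p = 0.0625), and at equal list length (exact sign-flip p = 0.102). Without tRNA genes near a coding gene the rate was lower than at coding genes, with a difference of -9.50 summits per Mb (p = 0.328, exact sign-flip).

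The comparison was therefore repeated at equal distance from a coding gene, using only sequence outside coding genes and outside the chromosome 2 stretch. At 1 to 100 bp from a coding gene the MYB3R1 libraries had 1018, 2420 and 656 summits per Mb in tRNA windows and 579, 1031 and 313 elsewhere. At 101 to 200 bp they had 827, 1735 and 587 against 291, 456 and 154. At 201 to 500 bp the values were 342, 665 and 171 against 131, 204 and 67.2, and at 501 to 1000 bp 251, 502 and 100 against 97.2, 171 and 49.2. Each MYB3R1 library was higher in tRNA windows at each of these distances.

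Added over the distances, MYB3R1 replicates 1 to 3 had 99, 217 and 62 summits in tRNA windows, where the rate elsewhere would give 45.3, 76.8 and 24.1. These are ratios of 2.18, 2.83 and 2.57, a mean log2 ratio of 1.33 (higher in 3 of 3 libraries, exact sign-flip permutation p = 0.25, the smallest that 3 libraries allow). MYB3R4 had 0, 7 and 1 summits where the rate elsewhere would give 1.14, 11.6 and 0.915, and MYB3R4mNES had 0 and 0 where it would give 0.595 and 0.691. The longest MYB3R4 list, replicate 2, thus had a ratio of 0.604. Over all 8 libraries the mean difference was 28.1 summits (exact sign-flip permutation p = 0.242). Whether the excess in MYB3R1 differs from that in the other groups was not tested.

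Seen from the coding genes, those with a tRNA gene within 500 bp more often had a MYB3R1 peak. Coding genes in the chromosome 2 stretch were left out here. With a window of 500 bp, 59.5, 85.2 and 44.5% of 600 such coding genes had a summit in MYB3R1, against 40.0, 61.3 and 27.9% of 26740 others. In MYB3R4 the shares were 0.5, 9.33 and 1.33% against 0.961, 7.18 and 0.856%, and in MYB3R4mNES 0.333 and 0.5% against 0.419 and 0.557%. The mean difference was 20.0 points over the 3 MYB3R1 libraries (exact sign-flip permutation p = 0.25, the smallest possible) and 7.75 points over all 8 (higher in 5 of 8, exact sign-flip p = 0.0859).

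Nearness to a coding gene separated the tRNA genes themselves. Of the 625, 455 lay within 500 bp of a coding gene, 63 of them overlapping it, and 170 lay farther away. In MYB3R1, 28.4, 56.0 and 18.5% of the near genes had a peak, against 4.71, 8.24 and 0.588% of the far genes. In MYB3R4 the near shares were 0.44, 2.20 and 1.76% and the far shares 0, 1.18 and 0%. In MYB3R4mNES they were 0.22 and 0.22% against 0 and 0.588%. Far genes were lower in 7 of 8 libraries, on average by 11.5 points (difference -11.5, exact sign-flip permutation p = 0.0234, 0.0703 after adjustment over the 9 main tests). The result no longer passed 0.05 without the chromosome 2 stretch, where the difference was -11.9 (exact sign-flip p = 0.0625). MYB3R4 replicate 1 and MYB3R4mNES then have 0 tRNA genes with a peak, so that test could not go below 0.0625. The result also failed to pass with nearness of 200 bp (exact sign-flip p = 0.0781) and at −log10 q of at least 10 (p = 0.188). The same held with a window of 100 bp (exact sign-flip p = 0.0625) and at equal list length, where the difference was -0.0452 (p = 0.875). At equal list length each library had only 0 to 3 tRNA genes with a peak. The far genes include most of the tandem copies, so the same was read over single genes alone.

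Single tRNA genes overlapping a coding gene (43 genes) had a MYB3R1 peak in 25.6% ± 16.1 (SD, n = 3 libraries, as for the values that follow). At 1 to 100 bp from a coding gene (210 genes) the share was 41.9% ± 24.2, at 101 to 200 bp (96 genes) 38.5% ± 20.9 and at 201 to 500 bp (64 genes) 23.4% ± 13.6. At 501 to 1000 bp (33 genes) it was 13.1% ± 13.7 and beyond 1000 bp (29 genes) 11.5% ± 7.18. Read within libraries, the share rose from overlapping genes to those at 1 to 100 bp in 3 of 3 libraries, and was lower in 3 of 3 at 201 to 500 bp than at 101 to 200 bp and at 501 to 1000 bp than at 201 to 500 bp. The other neighbouring steps changed in different directions between libraries. An exact test over 3 libraries cannot go below p = 0.25. Replicate 2, the longest list, was highest at every step.

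**Figure D3:**
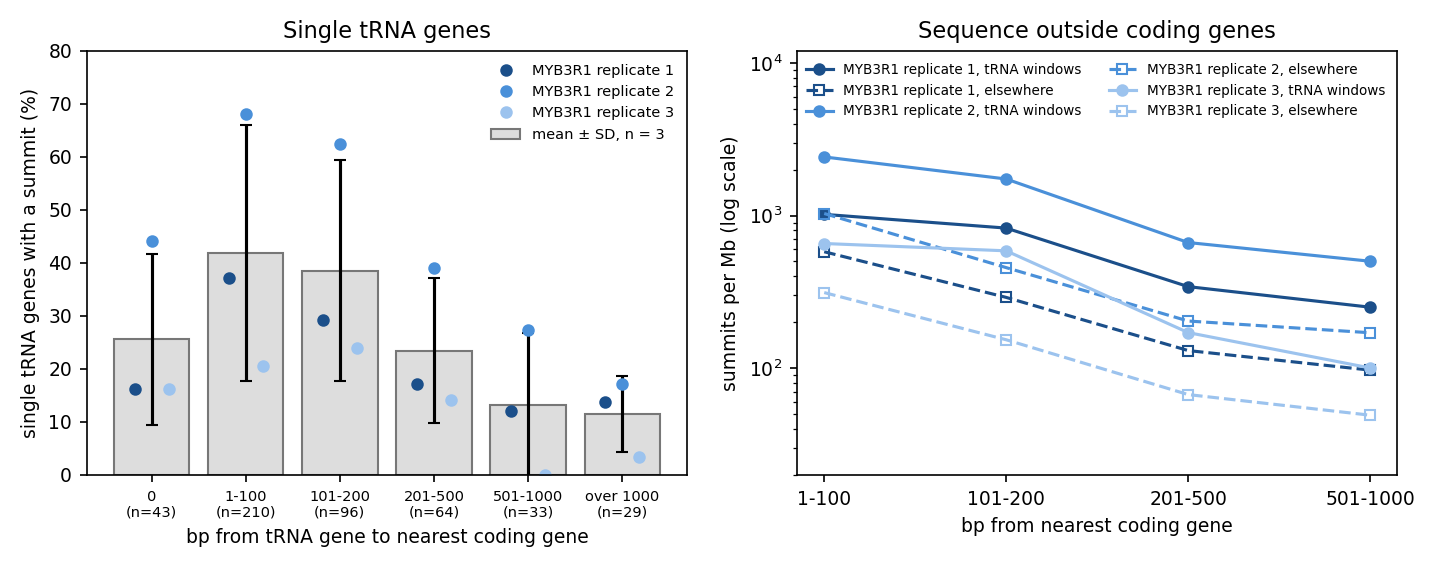
Left, share of single tRNA genes with a MYB3R1 summit (percent) by distance to the nearest coding gene, with bars for the mean, error bars for the SD over 3 libraries and points for each library. Right, summits per Mb on a log axis for sequence outside coding genes in tRNA windows (solid) and elsewhere (dashed). The mean share is highest at 1 to 100 bp, 41.9%, and in each MYB3R1 library the solid line lies above the dashed line.

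Peaks were rare at tRNA genes that lie in tandem. A tandem cluster was taken as at least 3 tRNA genes with gaps of at most 1000 bp, which gave 132 genes in 10 clusters. A further 18 genes formed 9 pairs, and 475 were single. Single genes had a MYB3R1 peak in 27.8, 54.9 and 17.5% of cases (132, 261 and 83 genes). Paired genes had a peak at 4, 8 and 2 of 18. Tandem genes had a peak at 1, 0 and 0 of 132 in MYB3R1, 2, 0 and 3 in MYB3R4, and 1 and 0 in MYB3R4mNES. Single genes had 0, 12 and 5 in MYB3R4 and 0 and 2 in MYB3R4mNES.

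Every peak at a tandem gene lay in the chromosome 2 stretch. Outside it, 123 tandem genes in 8 clusters had 0 peaks in any library. The largest cluster, on chromosome 1 from AT1G56730 to AT1G57530, holds 81 genes in 39.7 kb, 54 for tyrosine and 27 for serine, none of them near a coding gene. Proline genes form 6 of the other clusters, with 11, 6, 5, 4 and 3 genes on chromosome 1 and 9 on chromosome 2. A cluster of 4 cysteine genes lies on chromosome 5.

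Tandem genes lay in other surroundings than single genes. Only 24 of them were near a coding gene, and 9 of those were in the chromosome 2 stretch. Among near genes, 30.0, 59.8 and 19.9% of 413 single genes had a MYB3R1 peak, against 1, 0 and 0 of 24 tandem genes. Among far genes, 12.9, 22.6 and 1.61% of 62 single genes did, against 0, 0 and 0 of 108 tandem genes. In the proline cluster on chromosome 2, all 9 genes lay near a coding gene and 0 had a peak. Tandem genes were lower than single genes in 5 of 8 libraries and higher in MYB3R4 replicate 1 (1.52 against 0%), MYB3R4 replicate 3 (2.27 against 1.05%) and MYB3R4mNES replicate 1 (0.758 against 0%), where the tandem peaks all lie in the stretch. The mean difference was -12.4 points over 8 libraries (exact sign-flip permutation p = 0.141), and -33.2 points over MYB3R1 (exact sign-flip p = 0.25, the smallest possible). The clusters outside the stretch repeat genes for 1 or 2 amino acids, no sequence was read, and the sources used here do not give how reads matching several places were treated. The part of this in the lack of peaks was not tested.

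By amino acid, MYB3R1 peaks were least frequent at the tyrosine, proline and cysteine genes. Of 75 tyrosine genes 3, 6 and 1 had a peak in replicates 1 to 3, a mean of 4.44% ± 3.36 (SD, n = 3). Of 66 proline genes, 39 of them in tandem clusters, 5, 12 and 5 did, a mean of 11.1% ± 6.12. Of 15 cysteine genes 2, 4 and 0 did. At the other end were tryptophan genes with 8, 8 and 7 of 14 (54.8% ± 4.12), phenylalanine genes with 7, 10 and 6 of 16 (47.9% ± 13.0) and histidine genes with 4, 8 and 2 of 10. Tryptophan was also steady across libraries, with 6 of its 14 genes in all 3.

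The amino acids lay closer together among single genes near a coding gene. There, tyrosine genes had a mean share of 23.1% (13 genes), arginine genes 25.0% (32 genes) and proline genes 31.9% (23 genes). Glutamate reached 51.7%, tryptophan 54.8% and phenylalanine 56.4% (13 genes). The 10 to 75 genes of an amino acid share sequence and are not independent, so no test was made. By chromosome, the mean MYB3R1 share was 19.6% on chromosome 1, which holds most of the clustered genes, 16.1% on chromosome 2, 30.4% on 3, 38.1% on 4 and 36.0% on 5.

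**Figure D4:**
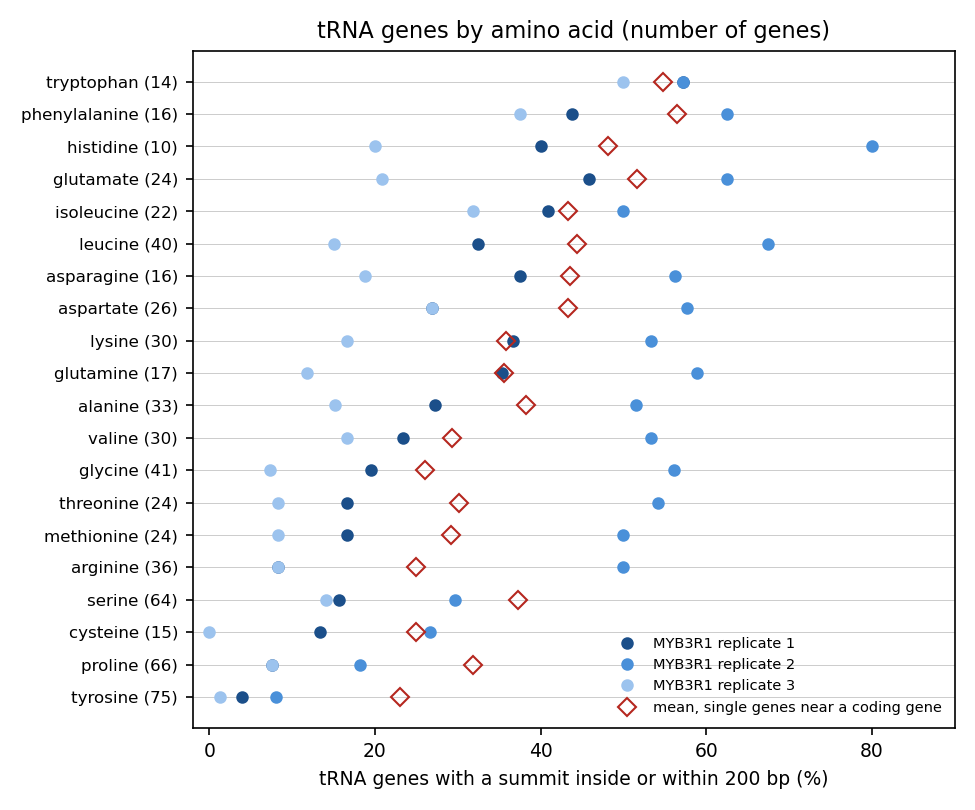
Share of tRNA genes with a MYB3R1 summit inside or within 200 bp (percent) for each of 20 amino acids, with the number of genes in brackets. Points are the 3 libraries and open diamonds the mean over single genes near a coding gene. Tyrosine and proline lie lowest over all genes, at means of 4.44 and 11.1%, and rise to 23.1 and 31.9% among single genes near a coding gene.

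The 12 tRNA genes with peaks in the most libraries all had a coding gene within 500 bp, and some overlapped it. A coding gene lay as close to 72.8% of all tRNA genes and to all 65 with a peak in the 3 MYB3R1 libraries. The highest peak in each MYB3R1 library among all members was at AT4G02055, a histidine tRNA gene overlapping PRL (PROLIFERA, MCM7), a subunit of the helicase that licenses DNA replication. Its fold enrichment was 8.61, 8.48 and 5.52 in MYB3R1, with no peak in the other 5 libraries. In replicate 1 the peak spans chromosome 4 positions 900870 to 901786 (TAIR10), and the 3 summits at 901378, 901358 and 901345 lie 98 to 131 bp from the tRNA gene and 709 to 742 bp inside PRL. AT5G13845, a lysine tRNA gene, overlaps FZR3 (AT5G13840), which encodes an activator of the anaphase-promoting complex. It had 7.82, 7.61 and 5.32 in MYB3R1, 1.95 in MYB3R4 replicate 2 and 2.25 in MYB3R4 replicate 3. Its summits on chromosome 5, at 4470968, 4470960 and 4470948 in MYB3R1 and at 4471016 and 4470969 in MYB3R4, lie 450 to 518 bp inside FZR3.

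A further 4 tRNA genes had a peak in all 3 MYB3R1 libraries and in MYB3R4 replicate 2. AT1G01890 (lysine) overlaps AT1G01880 (GEN1), a nuclease that resolves recombination intermediates, and had 6.90, 7.20 and 3.75 in MYB3R1 and 2.00 in MYB3R4 replicate 2. AT5G02815 (serine) lies 72 bp from RHL2, a subunit of the plant topoisomerase VI needed for endoreduplication, and 369 bp from the circadian clock gene PRR7. Its values were 5.56, 7.61 and 3.39, with 2.15 in MYB3R4 replicate 2. AT5G45745 (glycine), 143 bp from the Rab GTPase gene RABA1c, had 4.46, 4.98 and 2.74, with 1.93. AT1G12510 (valine), 12 bp from the copper chaperone gene CCS, was the weakest of them with 2.69, 3.38 and 1.98, and 1.86. At all of these genes MYB3R1 replicate 3 was lower than the other MYB3R1 libraries, as was the median of its whole list (2.21, against 3.04 in replicate 1 and 2.76 in replicate 2).

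The other 6 genes had a peak in 3 libraries, mostly those of MYB3R1. AT4G01865 (phenylalanine) had 8.43 and 6.85 in MYB3R1 replicates 1 and 2, no peak in replicate 3 and 2.32 in MYB3R4 replicate 2. AT4G27875 (glutamine) had 8.30, 7.38 and 5.12. AT2G21670 (leucine), 251 bp from the glycine-rich RNA-binding protein gene GRP7, had 5.09, 7.48 and 4.12, and AT5G64505 (valine), 215 bp from TIN1, had 5.32, 6.01 and 3.99. AT5G56745 (proline), 101 bp from the histone acetyltransferase gene HAG2, had 3.88, 6.05 and 3.82. AT2G36860 (tyrosine), 197 bp from GSL8, which encodes a callose synthase of the cell plate, had 3.91, 5.57 and 3.72. These 12 genes were chosen for the number of libraries and the rank of their peaks, so their heights are a description. A peak cannot be assigned to the tRNA gene or to its neighbour.

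**Figure D5:**
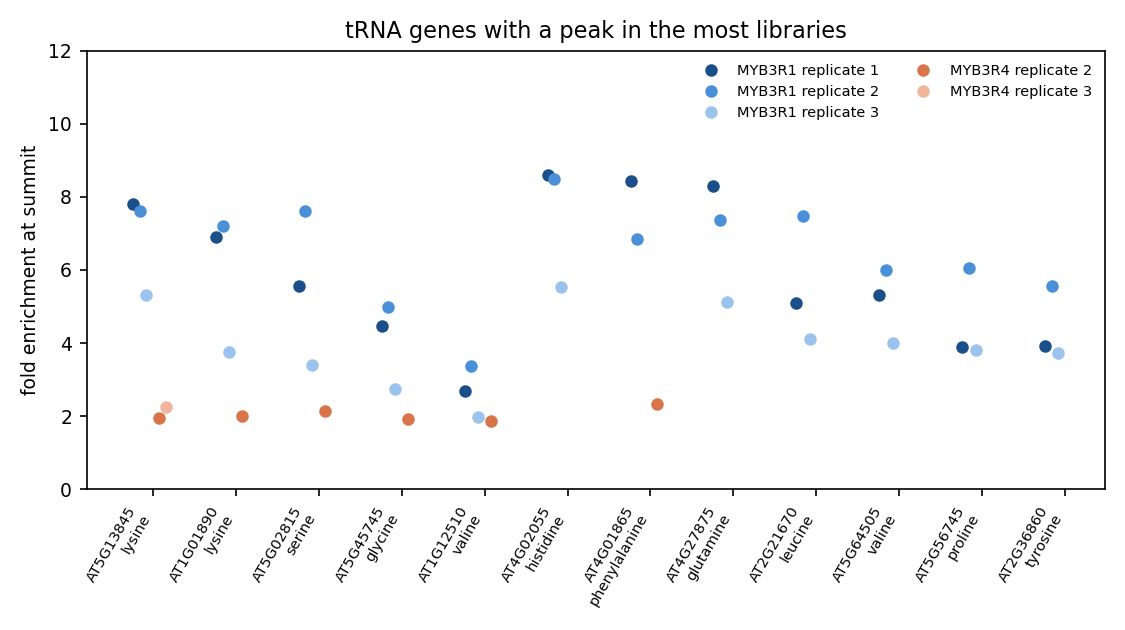
Authors' fold enrichment over input at the summit for the 12 tRNA genes with a peak in the most libraries, 1 point for each library with a peak. MYB3R1 points run from 1.98 to 8.61, and MYB3R4 points, at 6 of the genes, from 1.86 to 2.32.

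Within their own lists, MYB3R1 peaks at tRNA genes were of ordinary height. Fold enrichment ran from 1.43 to 8.61 (median 2.93) in replicate 1, from 1.62 to 8.48 (median 2.73) in replicate 2 and from 1.63 to 5.52 (median 2.22) in replicate 3. Their median percentiles in the lists were 45.9, 49.0 and 50.4. Members of the other lists ranked low, with medians of 12.7, 39.9 and 21.8 in MYB3R4 and 2.20 and 6.64 in MYB3R4mNES. These medians rest on only 1, 12 and 8 peaks in MYB3R4 and 1 and 2 in MYB3R4mNES. Each library nevertheless counts equally in the test that follows. Over 8 libraries the median percentile differed from 50 by a mean of -21.4 (below 50 in 7 of 8 libraries, exact sign-flip permutation p = 0.0156, 0.0703 after adjustment over the 9 main tests). The call rested on peaks in the chromosome 2 stretch, without which the mean was -0.754 over the 5 libraries that kept members (exact sign-flip p = 0.813).

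That stretch, 3.2 to 3.7 Mb on chromosome 2, holds a copy of the mitochondrial genome, and 23 of the tRNA genes lie in it. It held 1, 0 and 0 tRNA genes with a peak in MYB3R1, 2, 1 and 6 in MYB3R4, and 1 and 2 in MYB3R4mNES. All nuclear peaks there numbered 34, 2 and 13 in MYB3R1, 132, 12 and 156 in MYB3R4, and 56 and 41 in MYB3R4mNES. Outside it, 136, 269 and 85 of the 602 other tRNA genes had a peak in MYB3R1, 0, 11 and 2 in MYB3R4, and 0 and 0 in MYB3R4mNES. All members of MYB3R4mNES and of MYB3R4 replicate 1 thus lay in the stretch. Whether reads from the organelle contributed to them was not tested.

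The members in the stretch were low and in some cases broad. AT2G07765 (tyrosine) had a fold enrichment of 1.35 in MYB3R4 replicate 3 and 1.30 in MYB3R4mNES replicate 1. AT2G07753 (tyrosine) had 1.41 in MYB3R4 replicate 1, in a peak of 4413 bp. AT2G05315, whose amino acid the annotation does not give, had 1.79 in MYB3R4 replicate 2, in a peak of 72744 bp, and 1.47 in MYB3R4mNES replicate 2. Median widths of MYB3R1 members were 608, 705.5 and 621 bp.

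Outside the stretch the MYB3R4 members were few. Of the 20 tRNA genes with a MYB3R4 peak, 11 lay outside it, and 7 of these 11 (63.6%) also had a MYB3R1 peak, and so did 291 of all 602 tRNA genes outside it (48.3%), so the overlap is near the background. Within the stretch 0 of the other 9 had a MYB3R1 peak. These 7 were 2.40% of the 292 tRNA genes with a MYB3R1 peak. The genes with a peak in 2 MYB3R4 libraries were AT5G13845, described above, and AT5G02435 (valine), with 2.10 in replicate 2 and 2.14 in replicate 3 and no MYB3R1 peak. The highest MYB3R4 member was AT1G06610 (alanine), with 2.35 in replicate 2 only. AT4G08345 (leucine) had 1.82 in replicate 2, with the summit 11480 bp from the nearest coding gene.

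A list of 10 protein-coding genes for RNA polymerase III and its factors was read in the same window. In MYB3R1, 7, 9 and 5 of the 10 had a summit, against 33.6, 53 and 23.3% of all coding genes. In at least 2 libraries 7 of 10 had it, against 34.7%. In the other 5 libraries 0 of 10 did, where 0.375 to 4.75% of all coding genes had a summit, so a count of 0 is near that background. TBP1 and TBP2, encoding TATA-binding proteins, had the highest values, 7.82, 7.20 and 4.94 for TBP1 and 6.04, 6.81 and 4.67 for TBP2. SRD2, encoding a subunit of the snRNA-activating complex, had 3.23, 3.95 and 2.25. NRPC1 and NRPC2, the largest subunits of the polymerase, had a summit in MYB3R1 replicate 2 only, with 3.68 and 1.96, and TFIIIA, a factor for 5S RNA genes, had none. The TATA-binding proteins also serve the other nuclear polymerases. With 10 genes chosen with earlier results known, this is a description.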

How the data were processed

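Peak lists of 8 ChIP libraries were used as deposited. Per the submitters' processing notes, FastQC, Trimmomatic, Bowtie2 and Picard and the TAIR10 build were used, with no versions. Per the file names, the authors set each ChIP library against input (1 list each, the input for MYB3R4 replicate 3 not being named) and used a read extension of 400 bp. The peak caller and the treatment of reads matching several places are not given in the sources used here. The deposited columns used were the ratio (fold enrichment over input), the −log10 p and −log10 q at the summit, and the summit position. A deposited score column of another kind was not used.

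tRNA genes came from a RefSeq gene table of TAIR10.1, whose coordinates are not printed. No genome was used, so no sequence, strand or anticodon is given. Windows (200 bp), clusters (gaps up to 1000 bp) and nearness (500 bp) were computed with pandas 2.3.3 and numpy 2.4.6 in Python 3.11.15. Groups were compared by exact permutation over libraries, paired measures by exact sign flips, both two-sided. The finding of summits in windows and of clusters was tested on simulated data, the 2 tests were not. Genes named are the 12 with peaks in the most libraries, ties by percentile, the strongest per library, up to 4 found in all libraries of a group and none of another (already among the 12), and the clusters. AT5G02435 and AT4G08345 were added after their values were seen. The members and lists were chosen with earlier results of these data known. The comparison at equal distance, that of coding genes with a tRNA neighbour and the values over MYB3R1 alone were chosen after seeing the data. Nuclear peaks only were analysed.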

Additional observations from a re-analysis of the deposited data

Results flagged for a closer look

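Some values lay in data outside the main comparisons, or had opposite signs in different groups. Peaks on the organelle chromosomes, which hold tRNA genes of their own and were not analysed, numbered 72 in MYB3R1 replicate 1, 0 in replicate 2 and 39 in replicate 3. They numbered 121, 21 and 169 in MYB3R4 and 81 and 81 in MYB3R4mNES. The libraries with more organelle peaks than MYB3R4 replicate 2 were also those with more peaks in the chromosome 2 stretch, where the tRNA peaks of MYB3R4mNES and of MYB3R4 replicate 1 lay.

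Coding genes with a tRNA gene within 500 bp had a peak more often than other coding genes in all 3 MYB3R1 libraries, by a mean of 20.0 percentage points. In MYB3R4mNES the mean difference was -0.0714 points, which rests on 2 and 3 of 600 genes and is less than 1 gene. Summits in tRNA windows exceeded the number at the rate elsewhere by a mean of 77.3 in MYB3R1, and in MYB3R4mNES the mean difference was -0.643. That last value comes from 0 and 0 summits against 0.595 and 0.691 at the rate elsewhere. Neither difference between the groups was tested, and the signs in MYB3R4mNES show no direction.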

How the results depend on the processing

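The differences in the share of tRNA genes with a peak kept their direction under every alternative run, with the smallest lead of MYB3R1 over MYB3R4, 0.107 points, at equal list length. Leaving out 1 library in turn gave 16.6 to 31.3 points for MYB3R1 over MYB3R4, 17.5 to 32.2 for MYB3R1 over MYB3R4mNES and 0.56 to 1.36 for MYB3R4 over MYB3R4mNES. Tandem genes stayed below single genes under all 24 alternatives, by -14.3 to -6.28 points with 1 library left out. The lead of MYB3R1 over MYB3R4 in the share of peaks was 0.148 to 0.961 points with 1 library left out, and turned to -0.789 with a window of 1000 bp, -0.258 when any part of the peak counted and -0.555 in style B alone. MYB3R4 over MYB3R4mNES turned to -0.00670 for summits inside the gene, -0.0767 at 500 bp, -1.17 at 1000 bp, -0.171 without tRNA genes near a coding gene and -0.326 with the replicate block. It ran from -0.326, without MYB3R4 replicate 3, to 0.487 with 1 library left out.

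The rate at tRNA genes, 1.55 to 1.97 (log2 ratio) with 1 library left out, no longer passed at 1.39 in style A, 2.09 in style B and 2.05 in MYB3R1 alone. As a difference per Mb it was 151.0 at −log10 q of 5, 102 at 10, 2.02 at equal list length and 172 without the chromosome 2 stretch, none passing, and -9.50 without genes near a coding gene. As a share of genes it was -4.33 points, and at equal distance 28.1 summits. Far minus near, -13.3 to -6.37 points with 1 library left out, no longer passed at a window of 100 bp (-8.58), at −log10 q of 10 (-6.91), at equal list length (-0.0452), without the stretch (-11.9), in style A (-18.2), in style B (-4.87), with nearness of 200 bp (-10.4) or in MYB3R1 alone (-29.8). The percentile, -24.5 to -17.7 with 1 library left out, was -23.0 for summits inside the gene, -6.75 and -0.809 at −log10 q of 5 and 10, -0.754 without the stretch, -23.5 without genes near a coding gene, -13.1 and -29.7 in styles A and B and -1.57 in MYB3R1 alone, none passing, and 7.74 at equal list length. Settings with 3 to 5 libraries cannot reach 0.05 in an exact sign-flip test. Far minus near without the stretch cannot either, as MYB3R4 replicate 1 and MYB3R4mNES then have 0 tRNA genes with a peak. At equal list length each list holds 0 to 3 members, so little can be read from that setting. For the others the cause was not tested.

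Correlations of deviations were -0.0448 to 0.0378 between same-numbered libraries and -0.0382 to 0.0486 between other-numbered ones. With 2 MYB3R4mNES libraries the values of replicate 2 mirror those of replicate 1. These correlations therefore cannot decide whether the numbers pair the libraries. With the replicate block, MYB3R1 over MYB3R4 was 25.0 points (exact p = 0.25), MYB3R4 over MYB3R4mNES 0.88 (exact p = 0.50), MYB3R1 over MYB3R4mNES 32.2 (exact p = 0.50), and no call changed. Read depth is not given in the files, so a tRNA gene without a peak cannot be told apart from one with too few reads.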

Other observations

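Other short noncoding genes, read in the same window, showed MYB3R1 peaks at unequal rates. Of 82 small nuclear RNA (snRNA) genes, which encode the RNAs of the splicing machinery, 25.6, 43.9 and 20.7% had a summit in MYB3R1 replicates 1 to 3. The shares were 21.9, 43.0 and 13.6% for tRNA genes and 33.6, 53 and 23.3% for all protein-coding genes. Shares of snRNA and tRNA genes lay closest in replicate 2 and farthest apart in replicate 3. Of 287 small nucleolar RNA genes, which guide rRNA modification, 12.5, 13.9 and 10.5% had a summit, and of 326 microRNA genes 3.68, 6.75 and 2.76%. Among the 4 rRNA genes of the annotation 2, 0 and 1 had a summit. Nearness to a coding gene differed between these classes, at 72.8% of tRNA genes, 81.7% of snRNA genes, 58.9% of small nucleolar RNA genes and 50.6% of microRNA genes. No test was made between the classes, and the part of nearness in the order was not tested.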
